A study of Homo sapiens with 9 samples.

Results

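The nuclear-encoded oxidative phosphorylation genes are the genes of the cell nucleus whose proteins build the respiratory chain (complexes I to IV) and the ATP synthase (complex V) of mitochondria. Members were chosen by gene symbol alone, from the NDUFA, NDUFB, NDUFC, NDUFS, NDUFV, UQCR, COX4 to COX8, ATP5, SDHA to SDHD and CYC1 names. Pseudogenes (30 names) and names with a hyphen (3 names) were dropped. This gave 81 of the 18690 genes counted, with 36 in complex I, 4 in complex II, 9 in complex III, 15 in complex IV and 17 in complex V. All 81 were counted in each table and passed the filter on low counts. The rule also took in ATP5S and ATP5SL, which are no subunits of the synthase, and COX7A2L, a factor of respiratory supercomplexes.

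Complexes I and II pass electrons from NADH and succinate to ubiquinone, complex III passes them on to cytochrome c, and complex IV hands them to oxygen. Complexes I, III and IV pump protons out of the matrix, and the ATP synthase lets them back in to make ATP. Endothelial cells are known for taking most of their ATP from glycolysis, while their mitochondria also serve biosynthesis and signalling.

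The libraries were made from poly-A RNA of HMEC-1 cells kept in 5.5 mM glucose. HMEC-1 is 1 immortalised line, derived from the small vessels of human skin. There were 3 libraries of cells given AMI-1 (100 µM in DMSO, 16 h), 3 of cells given AMI-5 (100 µM in DMSO, 16 h) and 3 of cells given the DMSO vehicle alone, called Ctrl. The study names both compounds as pharmacological inhibitors of methyltransferases. By the chemical names it gives, AMI-1 is a urea joining a pair of hydroxynaphthalene sulfonic acids and AMI-5 is a benzoate that carries a brominated xanthene. Nothing in the labels says whether the 3 libraries of a group are separate cultures. The p-values given here therefore describe the spread of these libraries, which may be technical. In fits with replicate number as a block, they describe only the spread left once differences between replicate numbers are taken out.

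Total counts ran from 14454113 to 24693020 per library, and the members held 0.617% to 0.717% of them. Levels below are CPM, counts per 1000000 of a library's total after scaling by TMM, which corrects the total for differences in composition. Libraries of the same replicate number share a prefix in the deposited library descriptions, which do not say what it stands for. They also deviated together. Their deviations from the group means correlated at 0.431 to 0.871 in 9 pairs, against -0.804 to 0.204 in 18 pairs of different number. The deviations of the 3 libraries of a group sum to 0 for each gene. The 18 pairs are therefore tied to the 9 and are no independent comparison. Replicate number held 85.6% of the sum of squares of the members' log2 CPM around their means, and treatment held 7.70%. Each comparison of the members is therefore given with and without replicate number as a block. Of 12 endothelial markers 11 were measured, with a summed level of 946 to 1191 CPM with AMI-1, 733 to 988 CPM with AMI-5 and 878 to 1251 CPM in Ctrl. Of 7 smooth muscle and pericyte markers 6 were measured, at 223 to 381 CPM with AMI-1, 172 to 326 CPM with AMI-5 and 205 to 437 CPM in Ctrl. Of 6 epithelial markers 3 were measured, at 265 to 392, 201 to 373 and 238 to 412 CPM in the same groups, and of 6 leukocyte markers 2, at 33.7 to 43.9, 31.7 to 49.0 and 28.8 to 42.2 CPM. Their part in the results was not tested. In bulk RNA, fewer cells of a type and less RNA per cell cannot be told apart.

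Nuclear respiratory genes are known targets of NRF1 and of the ETS factor GABP, so the start sites were searched for the NRF1 motif (GCGCA, any base, then GCGC) and the ETS motif (CCGGAAG) on both strands. The motifs do not overlap each other in the windows shown. RefSeq start regions of 300 bases on GRCh38.p14 were held for 65 of the 81 members. The NRF1 motif was in 15 of the 65 (23.1%), against 6.98% of 27305 genes with a window. The ETS motif was in 20 of the 65 (30.8%), against 12.2% of those genes. Shown are the 250 bases before the start of 3 genes that fell with AMI-5 in the blocked test with TMM scaling (SDHA, UQCRC1 and NDUFS3) and of SDHD, a complex II partner that did not, 5′ to 3′ in the direction of transcription. They lie at SDHA (chr5:218070-218319, plus strand), SDHD (chr11:112086623-112086872, plus strand), UQCRC1 (chr3:48609647-48609896, minus strand) and NDUFS3 (chr11:47578824-47579073, plus strand). Capitals mark the motif matches. On the other strand the ETS motif reads CTTCCGG and the NRF1 motif reads GCGC, any base, then TGCGC, as in UQCRC1.
SDHA: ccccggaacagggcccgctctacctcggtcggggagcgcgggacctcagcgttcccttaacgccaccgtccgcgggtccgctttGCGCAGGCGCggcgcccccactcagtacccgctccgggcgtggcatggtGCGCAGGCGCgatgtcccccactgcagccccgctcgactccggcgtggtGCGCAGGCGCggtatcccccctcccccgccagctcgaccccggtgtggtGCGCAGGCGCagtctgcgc
SDHD: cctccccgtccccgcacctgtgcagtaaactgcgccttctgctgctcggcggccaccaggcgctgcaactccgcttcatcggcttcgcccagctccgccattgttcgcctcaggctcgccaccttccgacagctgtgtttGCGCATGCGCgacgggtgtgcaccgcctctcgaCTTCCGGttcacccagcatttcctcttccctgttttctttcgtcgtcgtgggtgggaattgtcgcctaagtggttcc
UQCRC1: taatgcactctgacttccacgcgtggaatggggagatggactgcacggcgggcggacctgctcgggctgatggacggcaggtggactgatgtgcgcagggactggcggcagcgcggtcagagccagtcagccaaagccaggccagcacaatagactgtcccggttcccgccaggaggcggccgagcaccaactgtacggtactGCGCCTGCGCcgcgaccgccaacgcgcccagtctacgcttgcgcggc
NDUFS3: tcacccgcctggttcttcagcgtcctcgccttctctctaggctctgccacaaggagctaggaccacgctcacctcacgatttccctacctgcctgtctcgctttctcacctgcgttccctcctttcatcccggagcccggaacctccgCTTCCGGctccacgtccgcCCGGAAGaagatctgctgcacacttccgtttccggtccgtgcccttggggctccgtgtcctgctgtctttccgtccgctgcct
SDHA carried 4 NRF1 matches, beginning at positions -166, -117, -68 and -19 from the start. SDHD carried 1 NRF1 match at -110 and 1 ETS match at -77, UQCRC1 carried 1 NRF1 match at -47, and NDUFS3 carried 2 ETS matches at -102 and -83. Of the other genes that fell and had a window, NDUFB7 carried 1 ETS match at -24. NDUFS6, NDUFS7, NDUFS8, NDUFB11 and ATP5SL also fell and carried neither motif in their 250 bases. A match is a string of letters and no measurement of binding.

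The summed level of the 81 members was 6993, 6473 and 6840.0 CPM in the AMI-1 libraries 1 to 3, 6843, 5979 and 6764 CPM in the AMI-5 libraries and 7001, 6449.7 and 7240.4 CPM in the Ctrl libraries. Within each group replicate 2 was the lowest. Complex I showed this most, with replicate 2 below the mean of replicates 1 and 3 by 13.7% with AMI-1, by 19.0% with AMI-5 and by 18.6% in Ctrl, while complex V in Ctrl differed by 0.303%. Taken within replicate numbers, the sum with AMI-1 had a mean log2 ratio to Ctrl of -0.03 ± 0.05 (SD, n = 3 pairs), and of 0.0017 without replicate 3. With AMI-5 the mean log2 ratio of the sum was -0.08 ± 0.04 (SD, n = 3 pairs), and it was below 0 in each of the 3 pairs (-0.03, -0.11 and -0.10), but scaling by total count alone moved it to -0.02, with replicate 1 above 0. The sums of complexes I, II and III with AMI-5 had log2 ratios to Ctrl of -0.11 ± 0.03 (SD, n = 3 pairs), -0.11 ± 0.03 (SD, n = 3 pairs) and -0.11 ± 0.06 (SD, n = 3 pairs), and with total count scaling of -0.05, -0.05 and -0.05. For complexes IV and V the values were -0.04 ± 0.06 (SD, n = 3 pairs) and -0.06 ± 0.05 (SD, n = 3 pairs), and with total count scaling both turned to the other side of 0, at 0.02 and 0.0003. The complex II sum holds 4 genes, and with AMI-5 2 lay below 0 and 2 above in edgeR with the replicate block. The median log2 fold change of these 4 genes was -0.0019. No test was made of the sums.

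**Figure D1:**
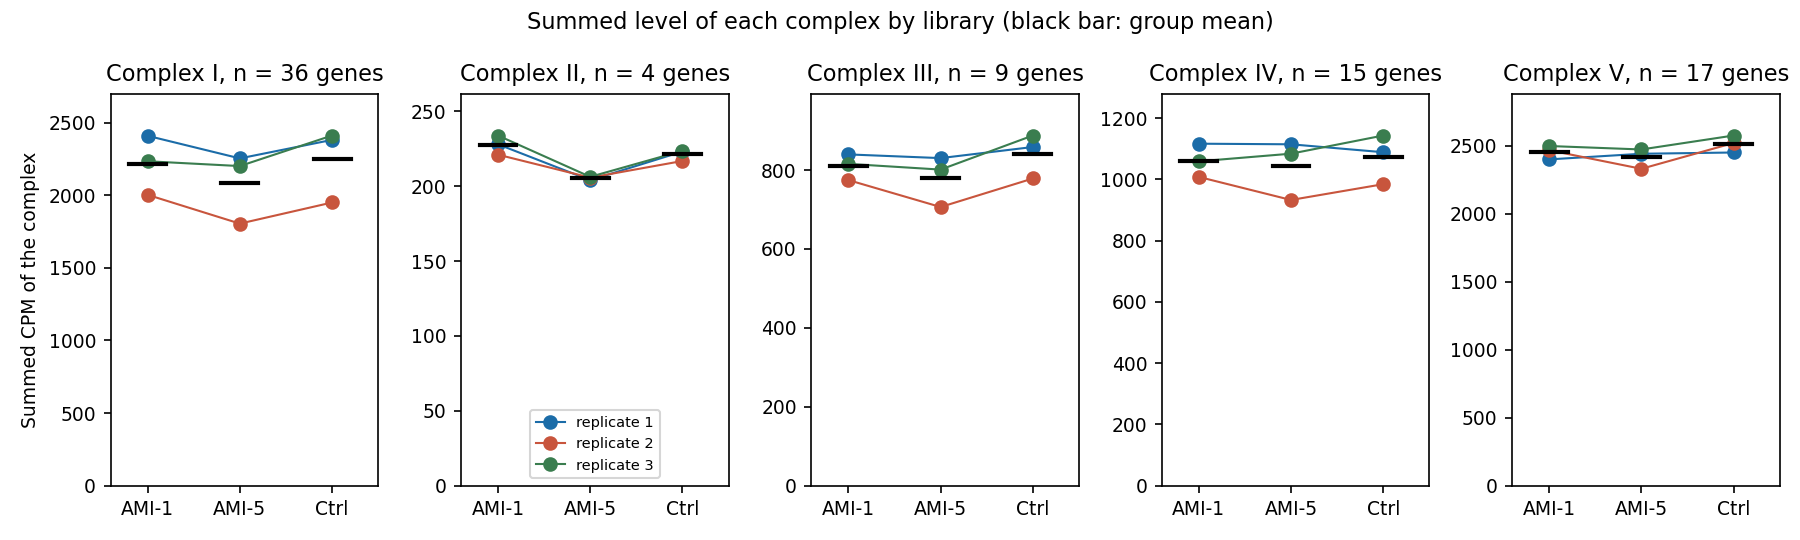
Summed CPM of the members of each complex (vertical axis, from 0) in the AMI-1, AMI-5 and Ctrl libraries, with lines joining libraries of the same replicate number and black bars at the group means. The replicate 2 libraries lie lowest in complex I, and the 3 AMI-5 libraries lie below the Ctrl library of their number in complexes I, II, III and V.

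With AMI-1, no nuclear respiratory gene passed the test. In the edgeR quasi-likelihood test with the replicate block, 0 of 81 members had an adjusted p under 0.05, where 0.41% of the 18284 genes tested did. An unadjusted p under 0.05 was found for 4 members and for 1851 of the 18284 genes. DESeq2 with the block also called 0 (0.41% of all genes), with 2 at an unadjusted p under 0.05 (935 of 18293 genes). Without a block edgeR called 0, with 0 at an unadjusted p under 0.05 (187 of 18284 genes). The median log2 fold change of the members was -0.02, against -0.0019 over all genes tested. Lower in 3 of 3 replicate pairs were 13 members, where 15.7% of all genes tested were, and higher in 3 of 3 were 11, where 14.4% of all genes were. The 95% intervals of 65 members lay within a 1.2-fold change and those of 78 within 1.5-fold. The 3 others at 1.5-fold were the low isoform genes COX6B2, COX7A1 and NDUFA4L2.

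Lowest in p with AMI-1 was ATP5G1, a gene for subunit c of the rotating ring of the ATP synthase. It had 37.2, 33.1 and 36.4 CPM with AMI-1, 42.5, 31.0 and 39.7 CPM with AMI-5 and 44.0, 39.4 and 44.6 CPM in Ctrl, and the AMI-1 libraries all lay below the Ctrl libraries. Its log2 fold change was -0.26 ± 0.07 (SE), adjusted p = 0.158 in edgeR with the block, so it did not pass. Groups did not overlap for 4 of the 81 members, 2 lower (ATP5G1 and ATP5B) and 2 higher (SDHC and NDUFC1), where 2.06% of all genes tested lay apart lower and 1.94% higher. NDUFC1, named after its values were seen, is an accessory subunit of complex I. A correction for transcript GC content, described below, brought ATP5G1 (-0.26, adjusted p = 0.00577) and the complex IV subunit NDUFA4 (-0.17, adjusted p = 0.0385) past the threshold, where 2.14% of all genes tested were called lower.

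The lowest p in each other complex with AMI-1 fell on NDUFS7, SDHC, CYC1 and COX5A. NDUFS7, a core subunit that holds an iron-sulfur cluster of complex I, had a log2 fold change of -0.19 ± 0.08 (SE), adjusted p = 0.454. SDHC, a membrane anchor of complex II, had 21.8, 20.9 and 24.2 CPM with AMI-1, against 19.1, 20.2 and 20.7 CPM in Ctrl, and a log2 fold change of 0.16 ± 0.08 (SE), adjusted p = 0.538. CYC1, the cytochrome c1 of complex III, had a log2 fold change of -0.15 ± 0.06 (SE), adjusted p = 0.401, and COX5A, a subunit on the matrix side of complex IV, one of -0.12 ± 0.06 (SE), adjusted p = 0.528. None of these 4 passed.

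With AMI-5, 12 members fell and 0 rose in the edgeR test with the replicate block: 7 in complex I, SDHA in complex II, CYC1 and UQCRC1 in complex III, ATP5D and ATP5SL in the ATP5 group, and 0 of 15 in complex IV. Over all genes tested 10.9% were called, 7.51% lower and 3.44% higher. The falls were small, between 1.14-fold (NDUFS3) and 1.33-fold (CYC1). Each of the 12 was lower in 3 of 3 replicate pairs, as were 33 of the 81 members (28.8% of all genes tested), while 14 members were higher in 3 of 3 (24.7% of all genes). The 95% intervals of 48 members lay within a 1.2-fold change and those of 78 within 1.5-fold. The median log2 fold change was -0.07 over the members and -0.0050 over all genes tested.

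These calls rest on the block and on the scaling. Without the block edgeR called 0 of 81, with 1 at an unadjusted p under 0.05 (485 of 18284 genes), and DESeq2 without it also called 0. With the block DESeq2 called 9, all lower (5.77% of all genes were called lower), and not ATP5D, NDUFS3 and NDUFS8. Scaling by total count called 10, 6 lower and 4 higher (SDHD, NDUFB1, NDUFB3 and ATP5E), and ended the calls of NDUFB7, NDUFB11, NDUFS3, NDUFS8, UQCRC1 and ATP5SL. Under total count scaling the background was 4.14% lower and 7.18% higher, and the median log2 fold change was -0.0081 over the members and 0.05 over all genes tested. CYC1, SDHA and NDUFS6 were called lower with the block under each of these settings and under the GC and length corrections that were run. Leaving out 1 library moved the count of 12 to 2 without Ctrl 1, 1 without Ctrl 3, 6 without AMI-1 1, 25 without AMI-1 3, 2 without AMI-5 1, 2 without AMI-5 2 and 18 without AMI-5 3. The share called among all genes also moved, being 1.75%, 1.54%, 7.13%, 23.4%, 0.848%, 1.69% and 15.9% in the same fits. CYC1 was called in each of the 9 fits that left out a library, with a highest adjusted p of 0.0364.

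**Figure D2:**
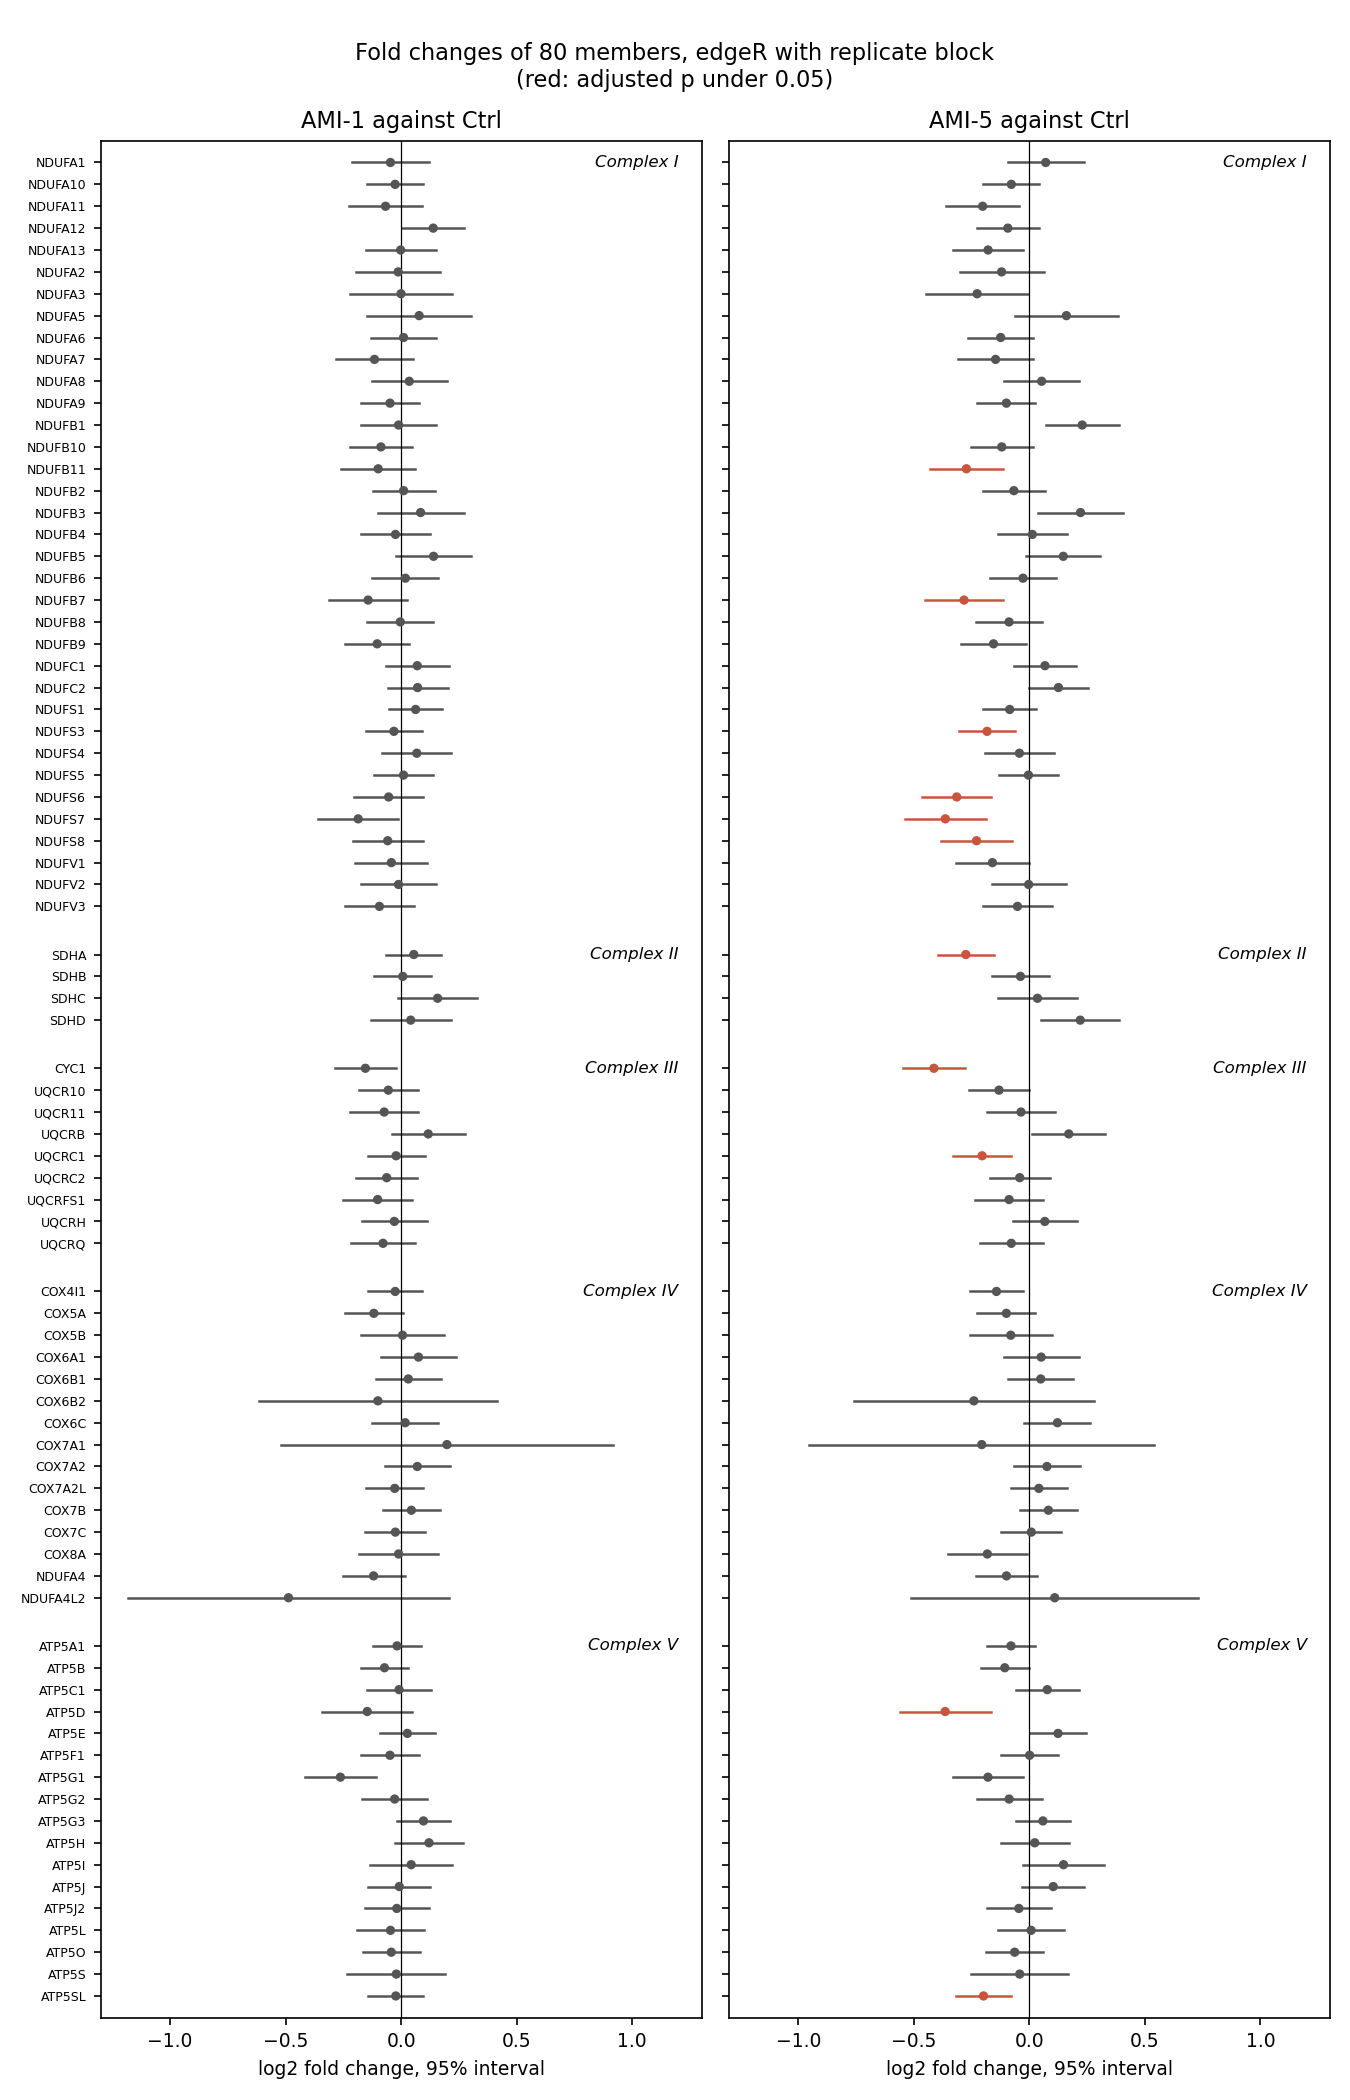
Log2 fold change with its 95% interval (horizontal axis) of 80 of the 81 members, grouped by complex, for AMI-1 against Ctrl (left) and AMI-5 against Ctrl (right), from edgeR with the replicate block. Red marks an adjusted p under 0.05: 0 members in the AMI-1 panel and 11 in the AMI-5 panel, all to the left of 0.

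The 7 nuclear core genes of complex I carry the flavin, the iron-sulfur clusters and the ubiquinone site. All 7 had log2 fold changes below 0 (6 with total count scaling), and NDUFS3, NDUFS7 and NDUFS8 were among those that passed the test. Among the 29 accessory genes 20 were below 0 (16 with total count scaling) and 3 passed.

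NDUFS7 had 50.0, 22.9 and 43.2 CPM with AMI-5, against 72.6, 27.0 and 52.7 CPM in Ctrl. Its level differed more between replicate numbers than between treatments, and each AMI-5 library lay below the Ctrl library of its number. The log2 fold change was -0.36 ± 0.08 (SE), adjusted p = 0.0113. NDUFS6, an accessory subunit that binds zinc, had 84.7, 38.8 and 72.4 CPM with AMI-5, against 96.8, 51.5 and 92.9 CPM in Ctrl. Again the groups overlapped and the pairs all pointed down, with a log2 fold change of -0.31 ± 0.07 (SE), adjusted p = 0.0103.

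NDUFB7 and NDUFB11, accessory subunits of the membrane arm, averaged 49.9 ± 22.0 and 57.8 ± 18.0 CPM with AMI-5, against 60.4 ± 24.7 and 69.3 ± 16.8 CPM in Ctrl (SD, n = 3 each). The log2 fold change of NDUFB7 was -0.28 ± 0.08 (SE), adjusted p = 0.0315, and that of NDUFB11 -0.27 ± 0.08 (SE), adjusted p = 0.0277. Neither passed with total count scaling (adjusted p = 0.0692 for NDUFB7 and 0.0683 for NDUFB11). The core subunits NDUFS3 and NDUFS8, outside the rule for named genes and added after their values were seen, were closest to the threshold. NDUFS3 had a log2 fold change of -0.18 ± 0.06 (SE), adjusted p = 0.0490, and NDUFS8, which holds iron-sulfur clusters, one of -0.23 ± 0.07 (SE), adjusted p = 0.0489. Neither passed with total count scaling (adjusted p = 0.181 for NDUFS3 and 0.122 for NDUFS8) or in DESeq2 with the block.

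Other core genes did not pass. NDUFS1, the largest core subunit, averaged 123 ± 15.2 CPM with AMI-5 and 130.3 ± 16.7 CPM in Ctrl (SD, n = 3 each), with a log2 fold change of -0.09 ± 0.05 (SE), adjusted p = 0.331. NDUFV1, which binds NADH and flavin, had a log2 fold change of -0.16 ± 0.07 (SE), adjusted p = 0.173. Complex I also held the highest log2 fold change of the members, NDUFB1 at 0.23 (adjusted p = 0.0582), an accessory subunit named after its values were seen.

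Of the 4 genes of complex II 1 passed with AMI-5, the catalytic subunit SDHA. SDHA, the flavoprotein that oxidises succinate, had 118, 86.4 and 109 CPM in the AMI-1 libraries, 94.8, 69.0 and 85.9 CPM in the AMI-5 libraries and 118, 78.8 and 107 CPM in the Ctrl libraries. The AMI-5 library was the lowest of each replicate number and replicate 2 was the lowest library of each group, so the groups overlapped. With AMI-5 its log2 fold change was -0.28 ± 0.06 (SE), adjusted p = 0.00680.

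SDHB, the iron-sulfur subunit beside it, averaged 76.8 ± 4.20 CPM with AMI-1, 74.4 ± 3.06 CPM with AMI-5 and 76.5 ± 6.13 CPM in Ctrl (SD, n = 3 each), and the 3 groups overlapped. SDHC averaged 20.5 ± 1.74 CPM with AMI-5 and 20.0 ± 0.803 CPM in Ctrl. SDHD, the other membrane anchor, had 17.2, 37.5 and 26.6 CPM with AMI-5, against 14.7, 34.4 and 21.5 CPM in Ctrl, higher with AMI-5 in 3 of 3 pairs. Its log2 fold change was 0.22 ± 0.08 (SE), adjusted p = 0.0854, which did not pass with TMM scaling and did with total count scaling (0.28, adjusted p = 0.0360). SDHA and SDHD both carried the NRF1 motif in the windows above, and a link between motif and fold change was not tested.

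CYC1 gave the lowest p among the 81 members with AMI-5. It had 106, 63.6 and 95.5 CPM with AMI-5, against 143, 86.7 and 123 CPM in Ctrl, and each AMI-5 library was below the Ctrl library of its number, by log2 ratios of -0.44, -0.45 and -0.36. The log2 fold change was -0.41 ± 0.06 (SE), adjusted p = 0.000922. UQCRC1, a core protein of complex III on the matrix side, had 193, 129.7 and 178 CPM with AMI-5, against 215, 154 and 207 CPM in Ctrl. These groups overlapped too, with a log2 fold change of -0.20 ± 0.06 (SE), adjusted p = 0.0324. Its call ended with total count scaling (adjusted p = 0.114) and with the GC correction described below. Of the 7 other genes of complex III 5 were below 0 (3 with total count scaling) and 0 passed.

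No complex IV gene passed with AMI-5 in either direction, with 2 of 15 at an unadjusted p under 0.05 and a median log2 fold change of 0.0082. Of the 18284 genes tested by edgeR with the block, 4980 had an unadjusted p under 0.05. DESeq2 with the block also called 0, leaving the 3 low isoform genes without an adjusted p. COX4I1, the largest nuclear subunit of complex IV, had the lowest p, with 222, 156 and 210.5 CPM with AMI-5, against 235, 175 and 237 CPM in Ctrl. Each AMI-5 library was below the Ctrl library of its number, and the groups overlapped. Its log2 fold change was -0.14 ± 0.06 (SE), adjusted p = 0.104. NDUFA4, first described with complex I and now placed in complex IV, averaged 59.8 ± 2.40 CPM with AMI-5 and 64.2 ± 5.13 CPM in Ctrl (SD, n = 3 each), with a log2 fold change of -0.10 ± 0.06 (SE), adjusted p = 0.330.

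The tissue and hypoxia isoforms of complex IV were low. Per kilobase of the principal transcript, COX7A1, the heart and muscle form, averaged 0.859 CPM over the 9 libraries, against 89.4 for its widespread counterpart COX7A2. NDUFA4L2, a hypoxia-induced relative of NDUFA4, averaged 0.545 against 28.7 for NDUFA4, and COX6B2, the testis form, 0.670 against 129 for COX6B1. NDUFA4L2 had 0.771, 0.339 and 0.402 CPM in the AMI-1 libraries, 1.03, 0.537 and 0.676 CPM in the AMI-5 libraries and 0.870, 0.544 and 0.648 CPM in the Ctrl libraries, and the 3 groups overlapped. COX7A1 had 0.841, 0.509 and 0.804 CPM in the AMI-1 libraries, 0.752, 0.403 and 0.549 CPM in the AMI-5 libraries and 1.27, 0.242 and 0.518 CPM in the Ctrl libraries. These are from 4 counts upward in a library, and no change could be seen at this depth. COX7A2 averaged 82.9 ± 6.42 CPM with AMI-1, 83.1 ± 4.07 CPM with AMI-5 and 79.1 ± 10.3 CPM in Ctrl (SD, n = 3 each). COX6A1, the liver-type isoform found in most tissues, averaged 41.4 ± 3.72 CPM with AMI-1, 40.8 ± 7.73 CPM with AMI-5 and 39.3 ± 5.05 CPM in Ctrl (SD, n = 3 each).

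In the ATP synthase 1 subunit gene passed. ATP5D, the delta subunit of the F1 central stalk, had 94.4, 27.4 and 75.1 CPM with AMI-5, against 132, 37.0 and 86.9 CPM in Ctrl. Its replicate 2 libraries were the lowest of each group, and its log2 fold change was -0.36 ± 0.09 (SE), adjusted p = 0.0190. ATP5SL, which is no synthase subunit and is known in human cells as a factor of complex I assembly, had a log2 fold change of -0.20 ± 0.06 (SE), adjusted p = 0.0324.

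The genes of the catalytic head did not pass. ATP5B, the beta subunit, had 765, 788 and 793 CPM in the AMI-1 libraries, 781, 744 and 765 CPM in the AMI-5 libraries and 808, 832 and 827 CPM in the Ctrl libraries. Both treated groups lay below the Ctrl libraries without overlap. With AMI-5 the groups lay apart for 2 members on the lower side and for 1 on the higher side (NDUFC1), where 3.36% of all genes tested lay apart lower and 3.98% higher. Its log2 fold change with AMI-5 was -0.11 ± 0.05 (SE), adjusted p = 0.170. ATP5A1, the alpha subunit, averaged 382 ± 9.96 CPM with AMI-5 and 404 ± 15.1 CPM in Ctrl (SD, n = 3 each), with a log2 fold change of -0.08 ± 0.05 (SE), adjusted p = 0.317.

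**Figure D3:**
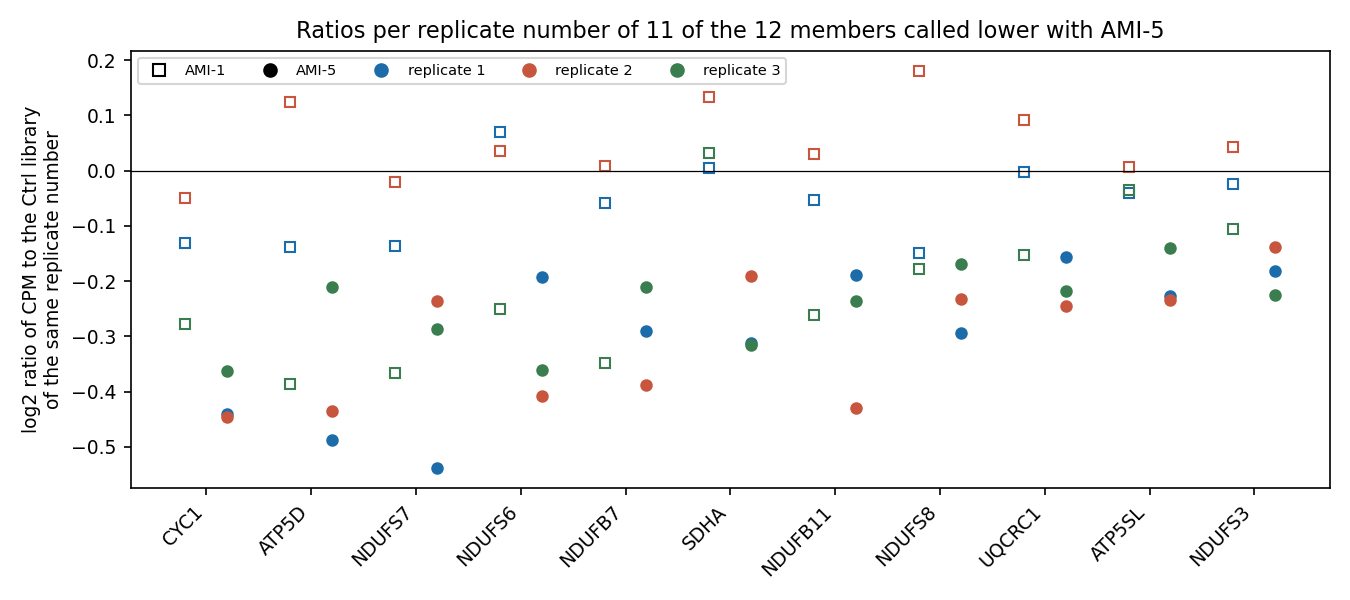
Log2 ratio of CPM to the Ctrl library of the same replicate number (vertical axis) for 11 of the 12 members that fell with AMI-5, with AMI-1 as open squares, AMI-5 as filled circles and colour for the replicate number. All 33 AMI-5 ratios lie below 0, and the AMI-1 ratios lie on both sides of it.

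The members that fell with AMI-5 were rich in G and C. Their longest transcripts had a median GC content of 58.7% (12 genes), against 46.5% for the 69 other members and 48.1% for all genes tested. Over the 81 members the log2 fold change with AMI-5 correlated with GC content at r = -0.64, a description over genes of the same libraries. The libraries differed in the same property over 14761 genes. Per 10 points of GC content, the log2 CPM of a library deviated by 0.30, -0.24 and -0.02 in AMI-1 replicates 1 to 3, by 0.16, -0.41 and 0.06 in AMI-5 and by 0.34, -0.31 and 0.14 in Ctrl. Replicate 2 was the lowest in each group, and each AMI-5 library was below the Ctrl library of its number.

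**Figure D4:**
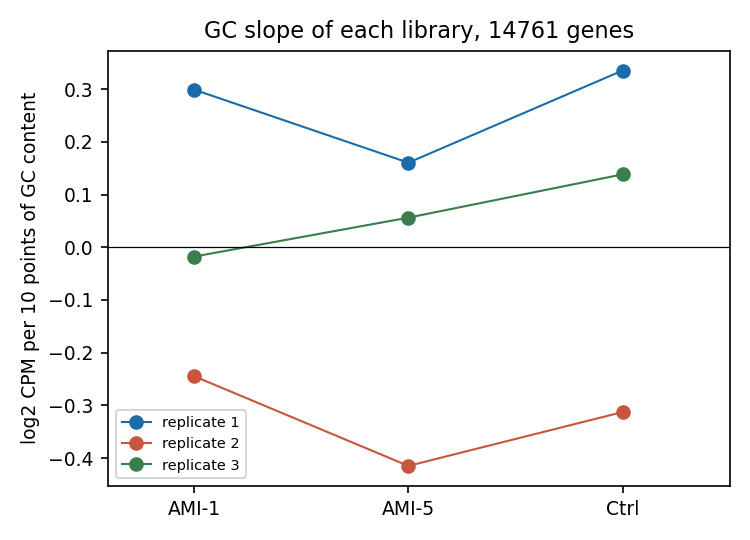
Slope of each library's deviation in log2 CPM per 10 points of transcript GC content (vertical axis) over 14761 genes, with lines joining libraries of the same replicate number. The slope is below 0 in the replicate 2 library of each group and lower in AMI-5 than in Ctrl at each number.

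When each library's GC curve was taken out together with the block, 18 members passed with AMI-5, 15 lower and 3 higher, at a background of 8.38% lower and 5.28% higher. The correlation with GC content was then r = 0.04. Of the 12 falls 7 remained, among them NDUFS6, NDUFS7, SDHA, CYC1, ATP5D and ATP5SL. The correction ended the calls of NDUFB7 (-0.06, adjusted p = 0.435), NDUFB11 (-0.12, adjusted p = 0.101), NDUFS3 (-0.09, adjusted p = 0.137), NDUFS8 (-0.11, adjusted p = 0.0980) and UQCRC1 (-0.06, adjusted p = 0.281). CYC1 had a corrected log2 fold change of -0.20 ± 0.04 (SE), adjusted p = 0.000810, and SDHA one of -0.26 ± 0.04 (SE), adjusted p = 5.02e-05.

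The genes that passed only with the correction, named after their values were seen, included COX4I1 (-0.14, adjusted p = 0.0126), NDUFA4 (-0.19, adjusted p = 0.00627), NDUFS1 (-0.16, adjusted p = 0.00471) and ATP5A1 (-0.10, adjusted p = 0.0349) on the lower side. ATP5I, ATP5J and COX6B1 passed on the higher side, with ATP5I, a small membrane subunit of the synthase, at 0.25 (adjusted p = 0.00627). With GC content from the principal transcript in place of the longest, 9 passed lower and 4 higher, at a background of 8.16% and 5.38%, and 4 of the 12 falls remained, among them NDUFS6, SDHA and CYC1.

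**Figure D5:**
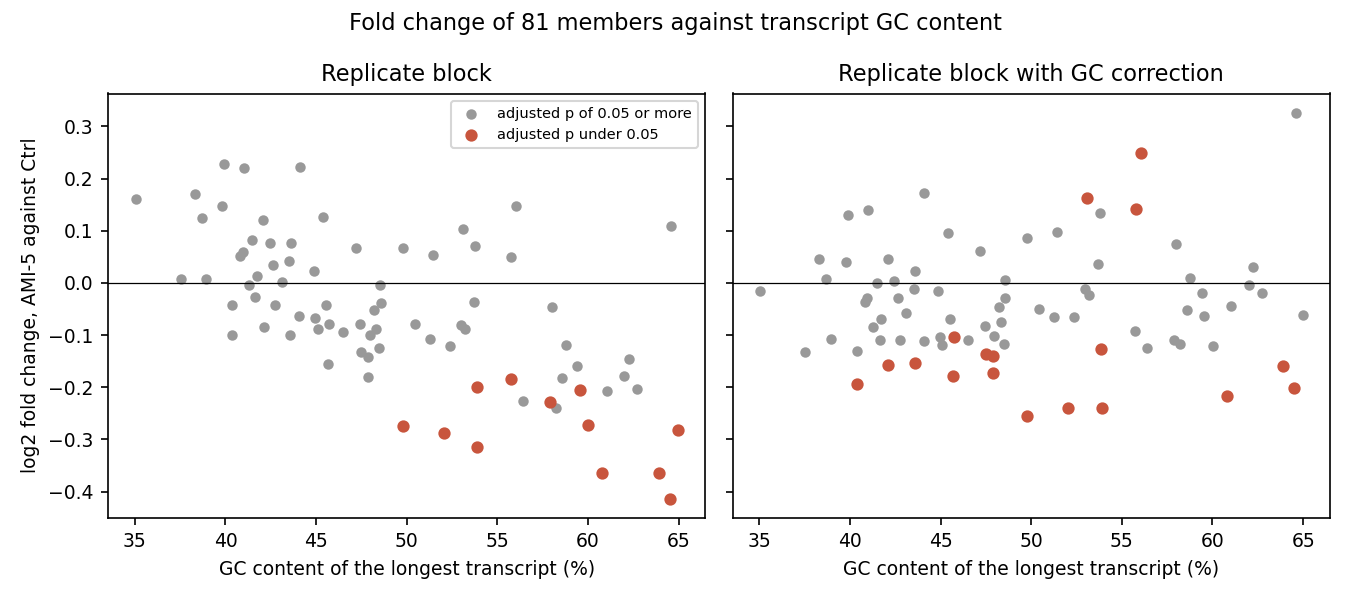
Log2 fold change with AMI-5 against Ctrl (vertical axis) by GC content of the longest transcript (horizontal axis) for the 81 members, with the replicate block alone (left) and with the GC correction added (right), red for an adjusted p under 0.05. The left panel slopes down, with r = -0.64, and its 12 red points lie at 49.8% GC or more, while the right panel has r = 0.04.

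Set directly against AMI-1, AMI-5 gave 5 lower members and 0 higher in edgeR with the block, where 3.48% of genes tested were called lower and 1.62% higher. Among them were SDHA, CYC1, NDUFS6 and NDUFA12. The groups lay apart for 1 member on the lower side and 0 on the higher side, where 3.28% of all genes tested lay apart lower and 4.21% higher. SDHA had a log2 fold change of -0.33 ± 0.06 (SE), adjusted p = 0.00209, with log2 ratios of -0.32, -0.32 and -0.35 in the 3 pairs. CYC1 differed by -0.26 ± 0.06 (SE), adjusted p = 0.0234, and NDUFS6 by -0.26 ± 0.07 (SE), adjusted p = 0.0397.

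NDUFA12, an accessory subunit of complex I, had 48.3, 56.3 and 53.3 CPM in the AMI-5 libraries, 53.4, 69.1 and 63.5 CPM in the AMI-1 libraries and 47.3, 63.0 and 58.8 CPM in the Ctrl libraries. The AMI-1 library was the highest of each number, and the log2 fold change of AMI-5 against AMI-1 was -0.23 ± 0.06 (SE), adjusted p = 0.0398. Among the ATP5 genes ATP5SL had the lowest p (-0.18, adjusted p = 0.0855), and in complex IV COX4I1 (-0.12, adjusted p = 0.255). Neither passed, and the GC correction brought both past the threshold, ATP5SL at -0.13 (adjusted p = 0.0291) and COX4I1 at -0.12 (adjusted p = 0.0408). Lower in 3 of 3 pairs were 18 members (18.5% of all genes tested) and higher 10 (16.7% of all genes). The 95% intervals of 50 members lay within a 1.2-fold difference between the compounds and those of 78 within 1.5-fold.

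These 5 calls also depended on the fit. Without the block edgeR called 0, with 1 at an unadjusted p under 0.05 (478 of 18284 genes), and DESeq2 called 1 (0.197% of all genes). With the block DESeq2 called 5, where 3.05% of all genes were called lower. With total count scaling 3 passed, 2 of them lower (SDHA among them) and NDUFB1 higher, at a background of 2.23% lower and 2.55% higher. The GC correction gave 7 lower and 1 higher, at a background of 6.86% and 4.97%. It gained ATP5SL, COX4I1 and NDUFS1 on the lower side and NDUFB1 on the higher, and lost CYC1 (-0.10, adjusted p = 0.103). All 5 calls, CYC1 among them, were kept with GC content of the principal transcript and with GC and length corrected together. Leaving out 1 library moved the count of 5 to 2 without Ctrl 1, 3 without Ctrl 3, 1 without AMI-1 1, 2 without AMI-1 2, 24 without AMI-1 3, 2 without AMI-5 1 and 1 without AMI-5 2, where 3.39%, 3.75%, 1.06%, 3.22%, 18.9%, 1.05% and 1.60% of all genes were called. Without AMI-5 3 the count was 7, at 8.22% of all genes, and without Ctrl 2 it stayed at 5, at 5.22%. SDHA was called in each of the 9 fits that left out a library.

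Genes that serve the same complexes were counted beside them, all from edgeR with the block, where with AMI-5 3.44% of all genes tested were called higher and 7.51% lower. Without the block edgeR called 0 of the 18284 genes tested in any comparison. No gene of these lists, or of those in the paragraphs below, passed there. Of 14 assembly factors of complex I, 1 rose with AMI-5 and 0 fell, or 2 and 0 with total count scaling or the GC correction. The riser was NDUFAF6, which averaged 13.7 ± 1.75 CPM with AMI-5 and 10.7 ± 2.12 CPM in Ctrl (SD, n = 3 each), at 0.37 ± 0.09 (SE), adjusted p = 0.0188. NUBPL, an iron-sulfur carrier for complex I, had a log2 fold change of 0.30 ± 0.10 (SE), adjusted p = 0.0640. Of 21 assembly factors of complex IV, COX10, which makes heme O for that complex, fell (-0.30 ± 0.08 (SE), adjusted p = 0.0197) and 0 rose, while with total count scaling 0 of the 21 passed. Of 13 assembly factors of complexes II, III and V, 0 passed, or 2 as higher with total count scaling, with ATPAF2, a chaperone of the synthase head, at -0.26 ± 0.09 (SE), adjusted p = 0.0658. Of 9 other nuclear chain genes, among them CYCS and ETFDH, 0 passed, with ETFDH, which feeds electrons from fat oxidation to ubiquinone, at 0.21 ± 0.09 (SE), adjusted p = 0.132.

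The 13 subunits encoded in mitochondrial DNA all had log2 fold changes above 0 with AMI-5, with a median of 0.08, and 3 rose, or 5 with total count scaling. MT-ND3, a complex I subunit, had a log2 fold change of 0.28 ± 0.06 (SE), adjusted p = 0.00489. Of the ATP synthase subunits MT-ATP6 had one of 0.20 ± 0.06 (SE), adjusted p = 0.0324, and MT-ATP8 one of 0.28 ± 0.08 (SE), adjusted p = 0.0351, which the GC correction ended (0.17 (adjusted p = 0.0718)). With AMI-1 all 13 were also above 0, with a median of 0.11, and 0 passed. With the GC correction 3 passed as higher with AMI-1, where 238 of the 18284 genes tested did. These comparisons share the Ctrl libraries.

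Among 15 measured regulators of respiratory gene transcription and mitochondrial DNA, 1 rose and 3 fell with AMI-5, at the background of 3.44% higher and 7.51% lower. PPRC1, a coactivator of the PGC-1 family, averaged 94.2 ± 11.9 CPM with AMI-5 and 120.4 ± 13.0 CPM in Ctrl (SD, n = 3 each), a log2 fold change of -0.35 ± 0.06 (SE), adjusted p = 0.00196. POLRMT, the mitochondrial RNA polymerase, and POLG, the mitochondrial DNA polymerase, fell, POLRMT at -0.35 ± 0.09 (SE), adjusted p = 0.0252, and POLG at -0.22 ± 0.07 (SE), adjusted p = 0.0467. GABPB2, a partner subunit of GABPA, rose, at 0.40 ± 0.09 (SE), adjusted p = 0.00997. NRF1 itself (-0.09 ± 0.07 (SE), adjusted p = 0.481), GABPA (0.06 ± 0.08 (SE), adjusted p = 0.663), ESRRA (-0.09 ± 0.09 (SE), adjusted p = 0.566), TFAM (0.10 ± 0.07 (SE), adjusted p = 0.410) and PPARGC1B (-0.34 ± 0.13 (SE), adjusted p = 0.0832) did not pass. The GC correction kept the calls of PPRC1 and GABPB2 and ended those of POLRMT and POLG. With it 1 of the 15 passed as higher and 2 as lower, PPRC1 among them, at a background of 5.28% and 8.38%. With total count scaling 1 passed as higher and 2 as lower, at a background of 7.18% and 4.14%. With AMI-1 0 of the 15 passed, PPRC1 being lowest in p at -0.22 ± 0.06 (SE), adjusted p = 0.158. The GC correction brought 2 of the 15 past the threshold as lower with AMI-1, where 2.14% of all genes were called lower. PPRC1 was among them, at -0.19 (adjusted p = 0.00354).

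In the citric acid cycle 1 of 14 genes fell with AMI-5 and 0 rose, at the same background. In glycolysis 2 of 19 fell and 1 rose, against 1 and 2 with total count scaling. PFKL, a phosphofructokinase, fell, at -0.37 ± 0.08 (SE), adjusted p = 0.00835, and so did PFKP, another, at -0.19 ± 0.06 (SE), adjusted p = 0.0467. The GC correction ended the call of PFKP, at -0.08 (adjusted p = 0.136). PDK1, a kinase that inhibits pyruvate dehydrogenase, rose, at 0.38 ± 0.09 (SE), adjusted p = 0.0140. With AMI-1 0 genes of either list passed, ALDOC, a fructose bisphosphate aldolase, being lowest in p in glycolysis at 0.42 ± 0.11 (SE), adjusted p = 0.127. With the GC correction 3 genes of glycolysis passed as higher with AMI-1, where 238 of the 18284 genes tested did.

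Counts of some members may hold reads of related copies. Pseudogene names were counted for 22 members, reaching 44.8% of the level of UQCRB, 37.5% of that of COX6A1 and, for SDHA, 15.7%. In GENCODE 29, exons of 46 members overlap another gene, in 34 of them a gene of the opposite strand. Among the 12 that fell with AMI-5 this touches NDUFB11 (beside RBM10), NDUFS3 (beside CELF1, KBTBD4 and PTPMT1), NDUFS7 and NDUFS8, whose values are uncertain to that extent.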

How the data were processed

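The authors deposited raw read counts per gene, in 1 table per compound with the Ctrl libraries in both. The submitters' processing notes name BWA, bedtools and the hg19 build. Their versions, the annotation and the strand setting were not given in the sources used here. The tables list 18385 and 18598 genes, 18293 in both, with no mean count under 10 and 0 differing Ctrl values. No coordinates are given for counted genes, since the reference used here is GRCh38.

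Genes in both tables were tested in 1 fit of 9 libraries by edgeR 4.0.16 quasi-likelihood (R 4.3.3; TMM, filterByExpr, robust dispersion), which kept 18284 genes. Adjusted p-values are Benjamini-Hochberg over those genes, with a threshold of 0.05 and 95% intervals. The planned fit has no block. Libraries sharing a replicate number correlated at over 0.1 in every pair, so the numbers were taken as pairing them, and named values are from the blocked fit. Pairs of different number reached 0.204, so the bar of 0.1 alone does not set the pairs apart. The common biological coefficient of variation was 23.7% without the block and 5.64% with it. The GC correction used a lowess curve (span 0.3) per library on the longest GENCODE 29 transcript, known for 95.7% of genes. Alternatives were DESeq2 1.42.0, other scalings, filters and left-out libraries. The scripts were tested on simulated data.

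The members, lists and the rule for named genes were chosen with earlier results of these data known. The rule names per complex up to 5 members past the threshold with the block, otherwise the lowest p, a fixed set of key subunits, and up to 4 lowest-p genes per list. Values of 2 genes that the rule names are not reported here. No member was in 1 table only.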

Additional observations from a re-analysis of the deposited data

How the results depend on the processing

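Without a block no count of called members left 0 under the other planned settings, except 1 for AMI-5 against AMI-1 (DESeq2 without a block). With the replicate block the counts were 0 for AMI-1 against Ctrl, 12 for AMI-5 against Ctrl and 5 for AMI-5 against AMI-1. With the block and the length correction they were 0, 12 and 5, with the block and the GC correction 2, 18 and 8, and with DESeq2 and the block 0, 9 and 5. Alternatives chosen after seeing the data gave, each with the block, 0, 11 and 5 (DESeq2 size factors), 0, 10 and 3 (total count scaling), 2, 13 and 7 (GC content of the principal transcript) and 2, 21 and 9 (GC and length). Over all genes the shares called, in the same comparisons, were 0.410%, 10.9% and 5.10% with the block, 0.563%, 11.8% and 5.29% with length, 3.44%, 13.7% and 11.8% with GC, 0.410%, 7.38% and 3.84% with DESeq2, 0.388%, 10.7% and 4.98% with its size factors, 0.443%, 11.3% and 4.78% with total count scaling, 3.50%, 13.5% and 11.8% with GC of the principal transcript and 3.62%, 13.9% and 11.8% with GC and length. Leaving out 1 library with the block gave 0 to 1 for AMI-1 (1 without AMI-1 2), 1 to 25 for AMI-5 (2, 10 and 1 without Ctrl 1, 2 and 3, 6, 15 and 25 without AMI-1 1, 2 and 3, 2, 2 and 18 without AMI-5 1, 2 and 3) and 1 to 24 for AMI-5 against AMI-1. The mean log2 ratio of the summed members with AMI-5 was -0.021 with total count scaling, against -0.08 with TMM.

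Directions of several named members turned in fits without the block that left out 1 library. Over those fits the log2 fold change ran between -0.58 and 0.16 for NDUFS7 and -0.34 and 0.0091 for CYC1 with AMI-1. With AMI-5 it ran between -0.58 and 0.052 for NDUFB7, -0.27 and 0.0012 for COX4I1, -0.74 and 0.094 for ATP5D, -0.53 and 0.059 for NDUFS8, -0.10 and 0.58 for SDHD, -0.33 and 0.019 for NDUFV1 and -0.17 and 0.012 for NDUFS1. Against AMI-1 it ran between -0.48 and 0.021 for NDUFS6 and -0.21 and 0.030 for COX4I1. With AMI-5 and the block, SDHB turned to 0.02 with total count scaling, against -0.04 with TMM, and SDHC to -0.03 with the GC correction, against 0.03 without it. The cause was not tested. Depth limited COX6B2, COX7A1 and NDUFA4L2. The spread between replicate numbers, the few libraries and the unknown strand of counting limit the rest.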
